A study of Mus musculus with 2 samples.

Results

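The genes described here are numbered cadherins, most of them classical, and the protocadherins that lie outside the clustered loci. They are 35 protein-coding genes among 55450 annotated genes. They were chosen by symbol alone: Cdh or Pcdh followed by a number, with Pcdh11x included. The rule for a member uses no measured value. The 35 comprised 23 Cdh and 12 Pcdh genes, of which 26 were detected (1 TPM or more in each library) and 9 were not.

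Classical cadherins hold cells together by binding calcium and the same cadherin on the neighbouring cell, and their cytoplasmic tails reach the actin cytoskeleton through beta-catenin, p120 catenin and alpha-catenin. Non-clustered protocadherins share the extracellular cadherin repeats but lack the catenin-binding tail; delta-1 tails carry a short motif that binds protein phosphatase 1, and several delta-2 tails bind the WAVE complex, which drives branched actin. In the hippocampus, members of both families take part in synapse formation, in the matching of axons to their target cells and in dendrite growth.

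Total RNA of the hippocampus was sequenced from B6CASTF1/J mice, a cross of C57BL/6J and CAST/EiJ, all female and 14 days old. There was 1 group of 2 libraries, biological replicates 1 and 2, and each lists 3 mice, with different mouse numbers; no treatment or gene alteration is named. The labels place the tissue in a hippocampal layer that they do not name, and they give both libraries 1 donor identifier. Each library was made from 300 ng of RNA with synthetic spike-in RNAs, and the labels do not say whether the mice of a library were pooled before or after extraction.

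The libraries held 33465393 (replicate 1) and 32879872 (replicate 2) expected counts. The 35 genes took 70789 and 66140 of them, 0.213% and 0.202% of the counts on annotated genes. Markers of CA1 (5 of 5), CA3 (4 of 4) and dentate granule cells (4 of 4) were all detected. The libraries differed in choroid plexus RNA: the summed TPM of 8 markers of that tissue was 1437 in replicate 1 and 9.86 in replicate 2, with none of the 8 at 0. With 1 group there is no condition to compare, so levels are given per library with mean ± SD (n = 2), and no p-value is given. TPM is a level per length of transcript, so it can be compared between genes; counts cannot.

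Reads of several members, Pcdh7 and Pcdh15 among them, were spread over annotated transcripts with different coding ends. Of these members, 2 are shown as examples, Cdh8 and Pcdh10. Their transcripts shown here code for the same extracellular part and then diverge at the cytoplasmic end. These ends are shown because they decide which tail the message encodes. Each line gives, on GRCm38, 24 shared coding bases in lower case and then the first coding bases of each transcript's own end in capitals (at most 60), taken from the GENCODE M21 transcript sequences. The Cdh8 transcripts come from the minus strand of chromosome 8 and share their first 2089 coding bases.
Cdh8-203: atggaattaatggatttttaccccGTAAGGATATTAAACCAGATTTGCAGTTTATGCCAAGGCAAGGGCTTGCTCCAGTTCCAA
Cdh8-207: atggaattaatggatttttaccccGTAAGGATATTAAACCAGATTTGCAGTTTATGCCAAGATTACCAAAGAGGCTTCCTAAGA
Cdh8-201: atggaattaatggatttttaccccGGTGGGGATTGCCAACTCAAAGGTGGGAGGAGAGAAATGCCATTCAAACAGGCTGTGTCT
Cdh8-204: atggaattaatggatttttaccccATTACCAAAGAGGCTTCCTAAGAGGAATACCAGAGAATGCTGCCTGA

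Cdh8-203 is the longest, with 799 residues and 311 own coding bases, and its first own base is at 99030875. Cdh8-207 (754 residues) runs on past the same base of exon 12 but leaves the exon earlier, at 99030839, and then reads into the segment that Cdh8-204 uses. Cdh8-204 (711 residues) is spliced out of exon 12 just before that base and ends after 47 own coding bases in the exon from 99024882 to 99024957. Cdh8-201 (716 residues) leaves exon 12 at the same point and continues in another exon, from 99029911, for 62 own coding bases.

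The Pcdh10 transcripts come from the plus strand of chromosome 3 and share 2631 coding bases. Pcdh10-201 stands for Pcdh10-202 and Pcdh10-203 too, since the bases shown are the same in all of them.
Pcdh10-201: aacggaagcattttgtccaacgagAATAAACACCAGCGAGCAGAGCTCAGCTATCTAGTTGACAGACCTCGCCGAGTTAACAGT
Pcdh10-204: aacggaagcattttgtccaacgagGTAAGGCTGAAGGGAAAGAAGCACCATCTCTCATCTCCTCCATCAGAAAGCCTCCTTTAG

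Pcdh10-204 runs on within exon 1, from 45381884, past the point where the others are spliced to exon 2 at 45383531, and stops after 60 own bases with 896 residues. The spliced forms have 1057 (Pcdh10-201), 1040 (Pcdh10-202) and 1047 (Pcdh10-203) residues. The levels of these transcripts are given below with their genes.

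The family was present broadly, and a few members carried most of its RNA. Of the 35 genes, 26 (74.3%) were detected, against 58.8% of all 21888 nuclear protein-coding genes. The median level over all 35 was 6.91 TPM, against 3.62 for all nuclear protein-coding genes. Among detected genes only, the medians were 15.6 TPM for the 26 and 14.9 for all. The 3 highest, Pcdh1, Pcdh9 and Cdh2, held 40.5% of the summed TPM of the family, and the 7 highest held 65.8%. By role, delta-1 protocadherins held 37.8% ± 0.946 of the summed TPM, type II classical cadherins 23.7% ± 0.0269 and delta-2 protocadherins 17.9% ± 0.531. Type I classical cadherins held 8.76% ± 0.130, the other non-clustered protocadherins 8.18% ± 0.439 and the lipid-anchored Cdh13 3.45% ± 0.0627.

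**Figure D1:**
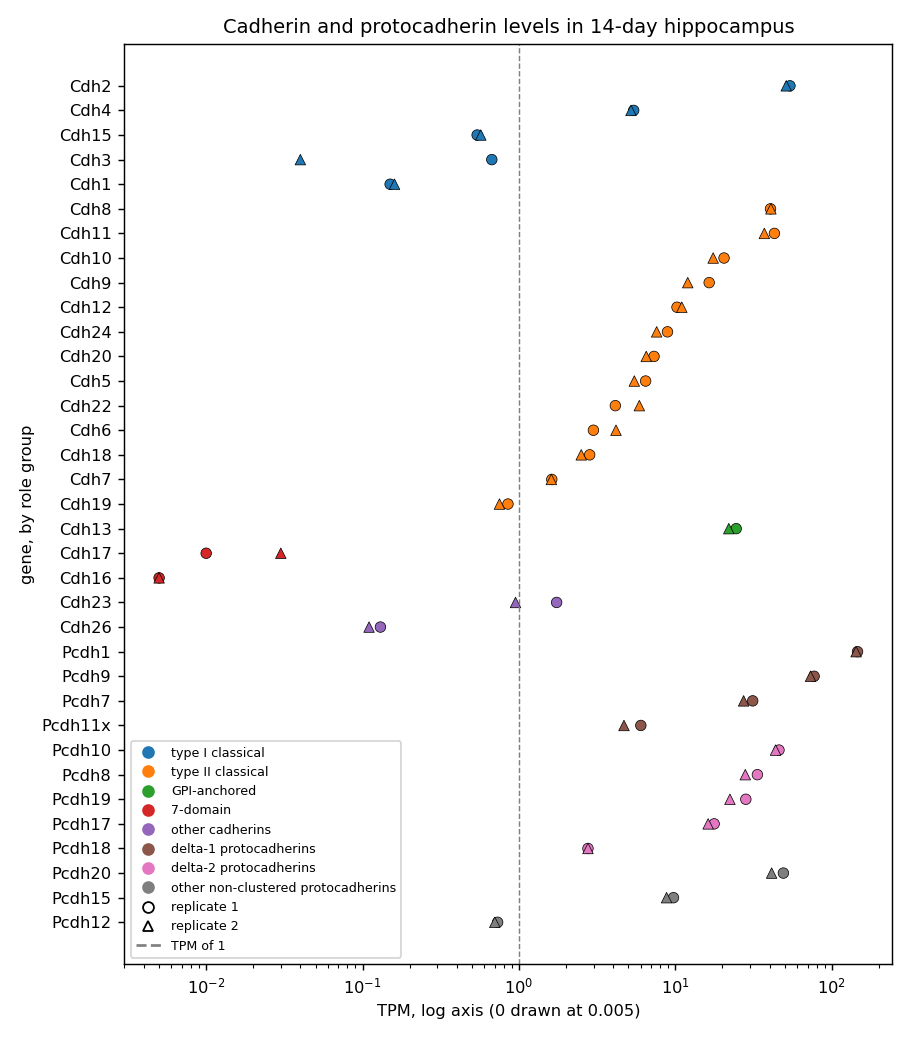
Level of each of the 35 genes in TPM on a log axis, by role group; circles are replicate 1, triangles replicate 2, and the dashed line marks a TPM of 1. Pcdh1 stands highest at 146 and 143 TPM, and Cdh3 has the widest gap between the libraries, 0.67 against 0.04.

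The type I classical cadherins were led by Cdh2, N-cadherin, the main cadherin of neurons and neural progenitors. Cdh2 stood at 54.0 TPM in replicate 1 and 51.1 in replicate 2, rank 3 of the 35. Its reads were divided between Cdh2-201, with 54.5% ± 4.26 of the gene's TPM, and Cdh2-202, with 40.2% ± 3.59. Both code for the same last 10 residues. Cdh4, R-cadherin, was the other detected member, at 5.41 and 5.20 TPM. Cdh15, the M-cadherin of muscle, had 0.54 and 0.57 TPM from 39 and 41 counts. Cdh1, E-cadherin, the epithelial member, had 0.15 and 0.16 TPM from 14 and 13 counts. Cdh2 was thus the 1 member of the group above 10 TPM.

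Cdh3, P-cadherin, had 66 counts in replicate 1 and 4 in replicate 2, or 0.67 and 0.04 TPM. The scaled log2 ratio of replicate 2 to replicate 1 was -3.79, with a 95% exact binomial interval of -5.86 to -2.52 that covers counting error only. The level lay below the minimum of 1 TPM for counting a ratio, so Cdh3 is outside the counts of ratios given below. The difference went the same way as that of the choroid plexus markers, 8 of 8 of which were lower in replicate 2, among them the transthyretin gene Ttr at 1375 and 5.62 TPM. Ependymal markers summed to 33.5 and 17.3 TPM and those of fibroblasts and meninges to 176 and 112. Their part in the Cdh3 difference was not tested. In bulk tissue, fewer cells of a type and less RNA per cell cannot be told apart. Cdh1, the neighbour 46.1 kb away on chromosome 8, did not show such a gap.

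Type II classical cadherins were the largest group, with 13 genes, and 12 of them were detected. Cdh8 and Cdh11 led. Cdh8 stood at 40.6 and 40.8 TPM, and Cdh11, known from mesenchyme and also present in neurons, at 43.0 and 37.0. The means, 40.7 ± 0.170 and 40.0 ± 4.19 TPM, did not differ beyond the spread of the libraries. Next came Cdh10, at 20.5 and 17.4 TPM, and Cdh9, a cadherin of dentate granule and CA3 cells with a known role in mossy fibre synapses, at 16.4 and 12.0. Cdh12 followed at 10.2 and 11.0 TPM and Cdh24 at 8.90 and 7.59. Cdh20 had 7.30 and 6.51 TPM. Cdh5, VE-cadherin, the adhesion molecule of endothelial junctions, had 6.45 and 5.46 TPM, beside summed endothelial markers of 98.6 and 101.

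The lower members of the type II group were Cdh22 (4.13 and 5.88 TPM), Cdh6 (2.99 and 4.17), Cdh18 (2.83 and 2.50) and Cdh7 (1.62 and 1.61). Cdh19, known from Schwann cell precursors, was the member that was not detected, at 0.85 and 0.75 TPM. Levels in the group thus ran from about 40 TPM to under 1 without a gap between detected and undetected genes.

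The tail transcripts of Cdh8 shown above all had reads assigned in both libraries. Of the TPM on its coding transcripts, Cdh8-204, with the short tail, took 43.0% in replicate 1 and 42.8% in replicate 2. Cdh8-203, with the longest tail, took 23.1% and 22.6%. Cdh8-207 took 18.0% and 19.7% and Cdh8-201 took 14.4% and 13.95%. In the second quantification the order was the same, with 43.7% on Cdh8-204 and 26.1% on Cdh8-203. The 3 transcripts with shorter ends together therefore exceeded the longest in both libraries. Counted in reads without the correction for length, Cdh8-203 took 31.3% of the coding transcripts. These shares are estimates from short reads, since most of the coding sequence is common to all 4. Cdh8-203 runs on in exon 12 past the points where the others are spliced out. Total RNA was sequenced, so reads of Cdh8 RNA not yet spliced cannot be told apart from the end of Cdh8-203.

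Delta-1 protocadherins held ranks 1 (Pcdh1), 2 (Pcdh9), 9 (Pcdh7) and 20 (Pcdh11x) of the 35. Pcdh1 stood at 146 and 143 TPM from 14267 and 14045 counts, rank 507 among nuclear protein-coding genes. Pcdh9 followed at 77.1 and 73.1 TPM and Pcdh7 at 31.2 and 27.3. Pcdh11x, on the X chromosome, was the lowest of the 4, at 6.01 and 4.69 TPM. The spread between libraries of Pcdh1, 2.15 TPM, was far below its distance from Pcdh9, so this order did not rest on 1 library.

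The phosphatase-binding motif of delta-1 tails (arginine, valine, threonine, phenylalanine) was searched in the translated coding transcripts of all 35 genes. It was found in 4 genes, which were the 4 delta-1 members. Of the coding TPM on transcripts whose coding end is annotated, Pcdh11x had 95.3% ± 0.331 with the motif, Pcdh7 90.0% ± 2.28, Pcdh1 81.8% ± 0.272 and Pcdh9 68.4% ± 3.40. In the second quantification the shares were 95.3%, 91.4%, 83.2% and 75.8%, in the same order. Pcdh9 was the lowest of the 4 in both. Its share was 50.1% ± 3.04 when transcripts with an unknown coding end, chiefly Pcdh9-205, were counted as lacking the motif.

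Among single transcripts, Pcdh9-204 (1203 residues, with the motif) had 24.7 ± 0.742 TPM. Pcdh9-205, whose annotated coding sequence is incomplete, had 15.2 ± 0.912 and Pcdh9-202 (1038 residues, without the motif) 11.6 ± 0.870. For Pcdh1, the transcripts with the motif were Pcdh1-204, at 63.6 ± 0.771 TPM, and Pcdh1-203, at 52.8 ± 0.226 TPM. Pcdh1-203 is annotated with only 360 residues, and the coding sequence of Pcdh1-204 is annotated as incomplete. Pcdh1-202 (1038 residues, without the motif) had 22.0 ± 1.06 TPM. The second quantification put 2.23% of Pcdh1 on that transcript and 14.6% on Pcdh1-201, against 15.2% and 2.66% in the first, so the division between these transcripts, which end in the same residues, was not stable.

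**Figure D2:**
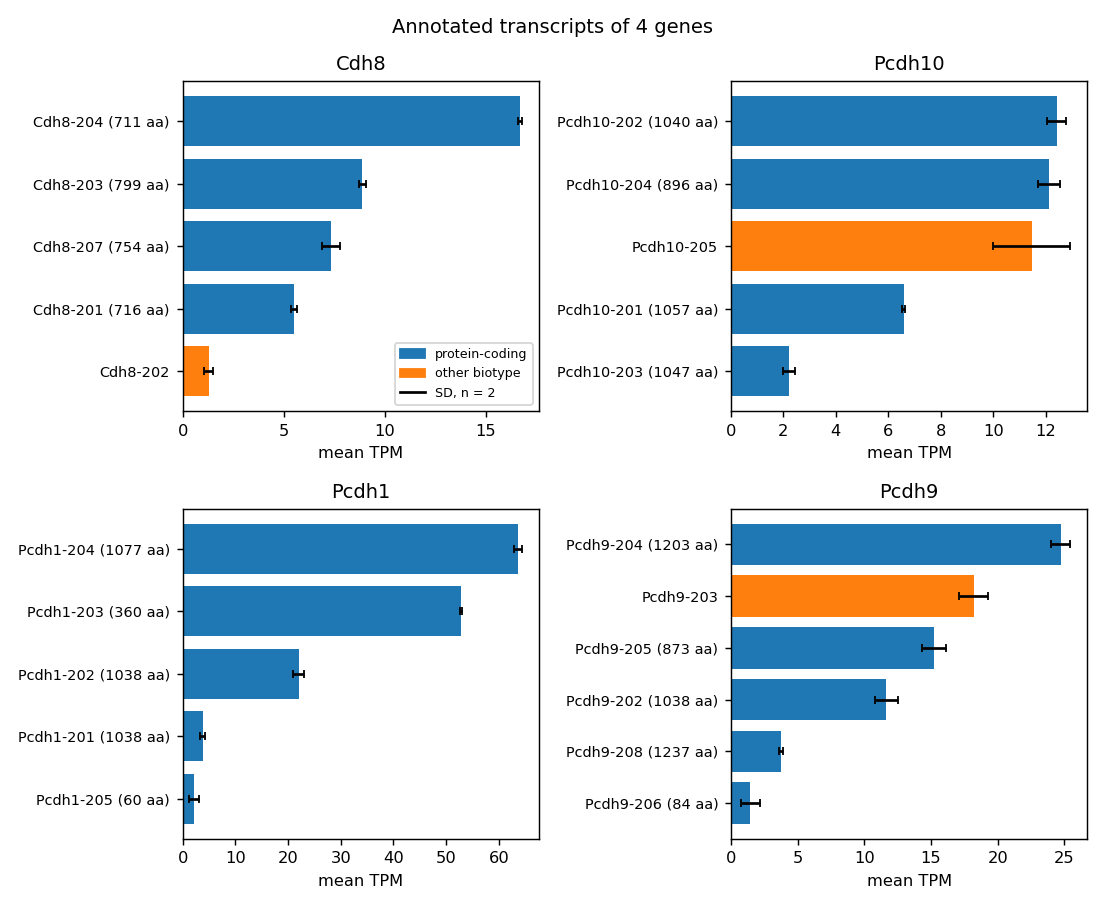
Mean TPM of each annotated transcript of Cdh8, Pcdh10, Pcdh1 and Pcdh9 with at least 1 TPM in the first quantification; blue bars are protein-coding, orange bars another annotated biotype, error bars the SD over 2 libraries, and aa the number of annotated residues. Cdh8-204 exceeds the longer Cdh8-203 (16.7 against 8.90 TPM), and Pcdh10-202 and Pcdh10-204 lie within their spread of each other.

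All 5 delta-2 protocadherins were detected. Pcdh10, which is known to bind the WAVE subunit encoded by Nckap1, stood at 45.9 and 43.7 TPM. Pcdh8, also known as arcadlin, a gene induced by neuronal activity, had 33.4 and 28.0 TPM. Pcdh19, an X-linked gene whose loss in heterozygous girls and women is known to cause epilepsy, had 28.2 and 22.3 TPM. Pcdh17 followed at 17.7 and 16.2 TPM. Pcdh18 was the lowest, at 2.76 TPM in both libraries, from 282 and 239 counts. On coding transcripts alone, Pcdh18 had 2.57 and 2.01 TPM. Every member but Pcdh18 was above 15 TPM in both libraries.

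Of the coding TPM of Pcdh10, 37.2% ± 0.95 was on Pcdh10-202 and 36.4% ± 1.38 on Pcdh10-204, the form that runs on past the exon 1 splice site. Total RNA was sequenced, so reads of Pcdh10 RNA not yet spliced cannot be told apart from the end of Pcdh10-204. Pcdh10-201 took 19.7% ± 0.271 and Pcdh10-203 took 6.66% ± 0.701. The spliced forms together therefore exceeded the unspliced end in both libraries, while no single one of them exceeded it beyond the spread. The second quantification gave 37.3% for Pcdh10-202 and 34.8% for Pcdh10-204.

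Of the other protocadherins, Pcdh20 stood at 49.0 and 41.2 TPM. Its mean, 45.1 ± 5.51, did not differ from that of Pcdh10, 44.8 ± 1.59, beyond the spread. Both of its transcripts, Pcdh20-201 and Pcdh20-202, are annotated with the same 952 residues. Pcdh15, which with Cdh23 forms the tip link of hair cells in the inner ear, had 9.72 and 8.78 TPM. Its partner Cdh23 had 1.74 and 0.95 TPM and missed detection in replicate 2, although its counts were 151 and 147. Cdh23-206, a noncoding transcript of 438 bases, held 44.5% and 26.9% of that TPM, from 6.01 and 1.98 counts. On coding transcripts alone, Cdh23 had 0.38 and 0.57 TPM, below 1 in both libraries. Pcdh12, an endothelial protocadherin, had 0.73 and 0.70 TPM. It lies 55.0 kb from Pcdh1 on chromosome 18, the highest of the family.

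Cdh13, T-cadherin, which has a lipid anchor in place of a tail, had 24.5 and 21.9 TPM. Cdh26 had 0.13 and 0.11 TPM. The kidney and intestine members were at or near 0: Cdh17 had 1 and 2 counts, and Cdh16 had 0 in both libraries. A count of 0 allows up to 3 counts, which for Cdh16 corresponds to 0.132 TPM in replicate 1 and 0.133 in replicate 2. The second quantification listed Cdh16 at 0.744 TPM in replicate 1 and at 0 in replicate 2.

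The libraries lay close together for most members. A ratio could be formed for 27 of the 35, those that averaged 1 TPM or more and had 50 or more counts in all. Of these, 24 lay within 1.2-fold; among all 14708 genes that met the same minimum, 79.0% did. Cdh22 alone was over 1.5-fold apart, against 4.25% of all genes. The median log2 ratio was -0.05 for the 27 and 0.00 for all genes, and 15 of 27 were lower in replicate 2 against 50.1% of all genes. The general spread between these libraries was a biological coefficient of variation of 0.104 (edgeR, 17902 genes).

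Cdh22 had 340 counts in replicate 1 and 482 in replicate 2, or 4.13 and 5.88 TPM. Its scaled log2 ratio was 0.60 (0.40 to 0.81). Cdh6 was the other member beyond the central 95% of all genes (-0.62 to 0.48), with 485 and 647 counts and a log2 ratio of 0.52 (0.34 to 0.69). With scaling by library totals the ratio of Cdh22 was 0.53, under 1.5-fold. In the other direction, Cdh9 had 1228 and 873 counts and a log2 ratio of -0.39 (-0.52 to -0.27), the lowest of the 27.

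Markers of hippocampal cells also differed between the libraries, mostly by less than 1.5-fold. Dentate granule cell markers summed to 107 TPM in replicate 1 and 135 in replicate 2, CA1 markers to 177 and 200, and CA3 markers to 172 and 145. Interneuron markers summed to 356 and 295, and astrocyte markers to 688 and 809. Of these 23 markers, Pou3f1 (CA1, log2 ratio 0.61) and Dsp (dentate, 0.60) were over 1.5-fold apart. Some went against the sum of their list, such as Fibcd1 of CA1 (50.8 and 41.8 TPM) and Pvalb of interneurons (log2 ratio 0.11). All were above 0 in both libraries. Their part in the differences of Cdh22, Cdh6 and Cdh9 was not tested. All 3 genes belong to the type II group, in which 7 genes were lower and 5 higher in replicate 2.

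**Figure D3:**
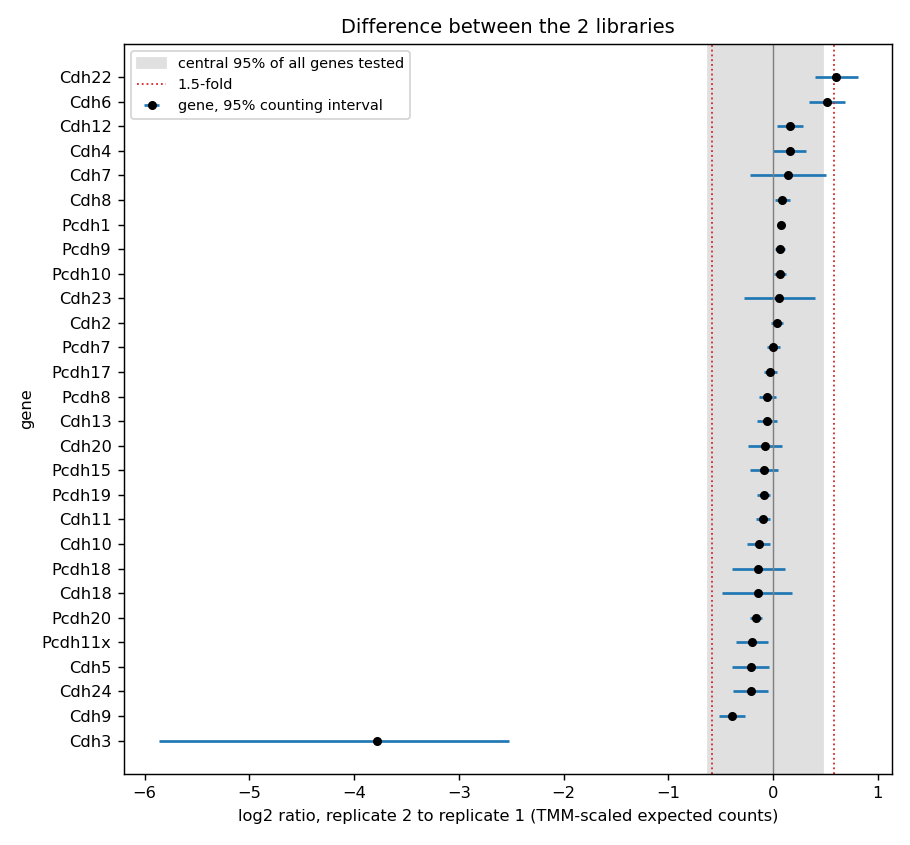
Log2 ratio of replicate 2 to replicate 1 for the 27 genes with a ratio, and for Cdh3; points are TMM-scaled expected counts, bars the 95% exact binomial counting interval, the grey band the central 95% of all genes and the dotted lines 1.5-fold. Cdh22 lies beyond the dotted line at 0.60, and Cdh3 stands apart at -3.79.

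Part of the TPM of several members was assigned to transcripts that are not annotated as protein-coding. At least 20% of TPM fell on transcripts that are not annotated as protein-coding for 7 of the 26 detected genes, against 33.9% of all detected nuclear protein-coding genes. They were Pcdh15 (47.2%), Cdh7 (30.3%), Cdh11 (29.2%), Cdh12 (26.8%), Pcdh10 (25.5%), Pcdh9 (24.2%) and Pcdh19 (23.1%). Much of this rested on short transcripts. Pcdh9-203, a retained-intron transcript of 656 bases, had 18.2 ± 1.1 TPM, and Pcdh10-205, of 634 bases, had 11.5 ± 1.48. For Pcdh19 it was Pcdh19-204, of 335 bases, with 7.68 and 4.04 TPM, which the second quantification put at 0 in both libraries.

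By counts, 2 of the 26 had at least 20% on such transcripts: Cdh7, with 35.7%, and Pcdh15, with 23.4%. The same share by counts was not taken over all detected genes, so whether 2 of 26 is few cannot be said. The median over the 26 was 7.85% by TPM and 2.31% by counts, against 10.4% and 4.0% for all detected nuclear protein-coding genes. With coding transcripts alone, Pcdh1 stayed at 144.5 TPM, Pcdh9 had 56.9 and Cdh11 had 28.3. Of the 7 highest genes, 6 were also among the 7 highest on that scale, and Pcdh7 took the place of Cdh11.

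**Figure D4:**
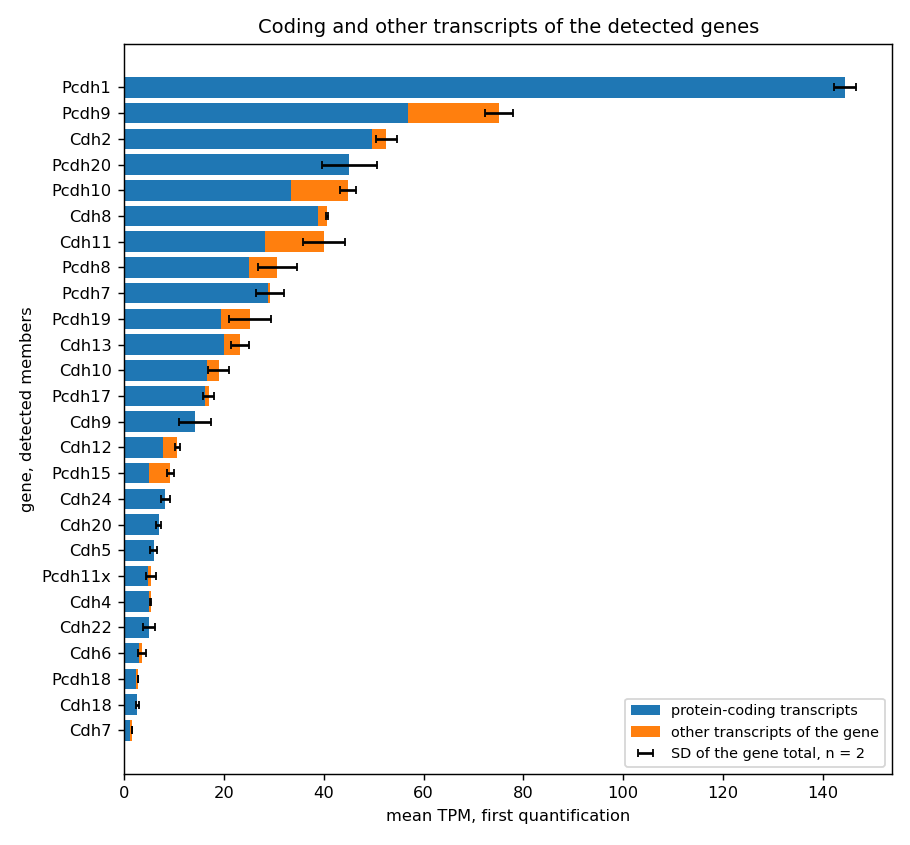
Mean TPM of the 26 detected genes, divided into protein-coding transcripts (blue) and the gene's other transcripts (orange); error bars are the SD of the gene total over 2 libraries. Pcdh1 carries no TPM on other transcripts, while Pcdh15 has 47.2% there.

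The deposited second quantification, made from the same reads, gave a higher mean TPM for each of the 26 detected genes, by a median of 1.5 times, against 1.56 for all detected nuclear protein-coding genes. The 7 highest genes were the same in both. Cdh13 was the 1 detected member whose estimates were over 2-fold apart in both libraries, against 8.42% of detected nuclear protein-coding genes. It had 24.5 and 21.9 TPM in the first and 52.6 and 46.2 in the second. Cdh13-208, a transcript of 580 bases that does not code for protein, was at 0 in the first and at 13.2 and 14.1 TPM in the second. The coding transcript Cdh13-201 had 20.9 and 19.1 TPM in the first and 29.7 and 27.4 in the second.

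Cdh10 showed the same gene level ratio as the family, 1.5, but a different leading transcript. Cdh10-202 held 71.3% ± 2.62 of its TPM in the first quantification and 13.8% in the second, where Cdh10-201 held 51.4%. Both are annotated with 788 residues. A transcript share of Cdh10 therefore cannot be given from these tables.

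Exons of 7 members overlapped those of another gene, mostly by a small part. Overlap was not counted over all genes, so whether 7 is many cannot be said. Of the 31-base words of Pcdh7, 20.7% also occur in 4932441J04Rik, a gene on the opposite strand that covers 21.1% of the exonic bases of Pcdh7. That gene was at 1.64 and 1.54 TPM, far below Pcdh7. Pcdh8 shared 8.82% of its words with Gm9748, at 0.52 and 0.31 TPM, and Cdh9 shared 4.79% with Gm49127, at 0. Cdh12 had the only overlap on the same strand, 3.14% of its exonic bases with Gm49685, which stood at 4.84 and 4.55 TPM beside 10.2 and 11.0 for Cdh12. Cdh11 overlapped no gene but shared 4.78% of its words with genes elsewhere. Whether counting used strand is not stated in the sources used here, so reads of Pcdh7 and its opposite neighbour cannot be told apart in the shared part.

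The genes lie on 11 chromosomes, with 8 of them on chromosome 8. Cdh6, Cdh9, Cdh10, Cdh12 and Cdh18, all type II and all detected, follow each other within 10.4 Mb of chromosome 15 (13028701 to 23474418), with levels from 2.67 TPM for Cdh18 to 18.9 for Cdh10. On chromosome 14 the 5 members, Cdh24, Pcdh8, Pcdh17, Pcdh20 and Pcdh9, were all detected. On chromosome 8, Cdh8, Cdh11, Cdh5 and Cdh13 were detected and Cdh16, Cdh3, Cdh1 and Cdh15 were not. Close neighbours could differ widely: Pcdh1 and Pcdh12, 55.0 kb apart, stood at 144.5 and 0.715 TPM.

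The detected members were long genes. Their median span was 156 kb, against 26.0 kb for all detected nuclear protein-coding genes. Pcdh15 spans 1550 kb, Cdh12 1140 kb and Cdh13 1041 kb. Pcdh8, at 4.54 kb, and Pcdh20, at 6.65 kb, were the shortest and yet were among the 8 highest in TPM.

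RefSeq promoter windows (GRCm38.p6, 250 bases before to 50 after the start) were matched for 22 of the 35, with 25 windows in all. Their median number of CG dinucleotides was 14, against 7 over all 32851 windows. The number ran from 2 for Cdh10, at 18.9 TPM, to 38 for Cdh22, at 5.00 TPM, so a CG-rich window did not mark the higher gene of this pair. The letters CCAAT, on either strand, occurred in 17 of the 25 windows (68.0%), against 37.4% of all windows. The letters TATAAA, on either strand, occurred in those of Pcdh8 and Pcdh15, 8.0% against 13.6%. These matches describe the letters only. Pcdh1, Cdh2 and Cdh11, which are among the 7 highest genes, had no window. Some windows lie inside the annotated gene, as for Cdh12, Cdh18 and Pcdh15. That of Cdh10 begins at 18820079, while the gene begins at 18818947.

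The genes through which these proteins act were also measured. For the lists that follow, the shares over all genes were 58.8% detected (nuclear protein-coding genes) and 4.25% over 1.5-fold apart. Of 11 catenins and direct adaptors, 10 were detected, and none of the 10 with a ratio was over 1.5-fold apart. Ctnnb1, beta-catenin, was the highest, at 335 and 329 TPM, above every cadherin. Ctnna3, an alpha-catenin known from heart, was the lowest, at 0.46 and 0.29. The neuronal forms Ctnnd2 (95.4 and 103 TPM) and Ctnna2 (52.3 and 56.6) stood at the level of Cdh2 or above.

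All 9 WAVE complex genes were detected, with a median of 103 TPM. Nckap1, whose product binds Pcdh10, led at 206 and 211 TPM, and Wasf2 was the lowest at 19.6 and 13.2. All 7 genes of shedding and intramembrane cleavage were detected. Aph1a had the highest mean (36.2 and 41.2 TPM), although Psenen (36.5 and 38.3 TPM) lay above it in replicate 1. Psen2 was the lowest (9.40 and 9.20 TPM), and Adam10, the sheddase of N-cadherin, had 30.0 and 28.4. None of these 16 genes was over 1.5-fold apart between the libraries, against 4.25% of all genes.

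Of 4 nectins, adhesion proteins that act beside cadherins, 3 were detected. Nectin1 was the highest (49.1 and 46.5 TPM), and Nectin4, the lowest, was over 1.5-fold apart (0.89 and 1.40 TPM, log2 ratio 0.75). Among 17 other genes of the cadherin superfamily, 12 were detected. Clstn1, a calsyntenin, was the highest, at 361 and 346 TPM, and Cdhr5 was at 0. Cdhr4 (1.74 and 0.90 TPM, log2 ratio -0.91) and Dchs2 (2.30 and 1.44, log2 ratio -0.58) were lower in replicate 2 by at least 1.5-fold, 2 of 13 genes with a ratio against 4.25% of all genes. Fat2, below the minimum of 1 TPM, was higher in replicate 2, with 104 and 339 counts (0.32 and 1.04 TPM, log2 ratio 1.80); it is named after its values were seen. The 58 clustered protocadherin genes had a median of 3.73 TPM, and 57 were detected; the 35 genes described here had a higher median, 6.91, with fewer of them detected. No test of that difference was made. Of the 57 clustered genes with a ratio, 7 were over 1.5-fold apart, against 4.25% of all genes. Pcdha2, Pcdha8, Pcdha9, Pcdha11 and Pcdhac1 were higher in replicate 2, with log2 ratios from 0.63 to 0.91. Another entry with the symbol Pcdha11 was not over 1.5-fold apart (2.80 and 3.13 TPM, log2 ratio 0.25). Pcdhb2 (-1.30) and Pcdhb3 (-1.14) were lower. The Pcdha genes share their last exons, so their reads can be divided among them only in part.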

How the data were processed

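The rule for members uses symbols only, but it, the role groups and the gene lists were chosen with earlier results of these data known. The authors quantified the reads on mm10 with the GENCODE M21 annotation, per the labels. The first quantification was deposited as tables by gene and by transcript, with expected counts (estimated reads, not always whole), TPM, FPKM and each transcript's percent of its gene's TPM, per the file headers. The second, deposited by transcript with a kallisto layout, holds TPM and estimated counts. Aligner, versions and strand setting are not stated in the sources used here. Levels are deposited TPM, with FPKM as an alternative.

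Ratios used expected counts with TMM scaling (edgeR 4.0.16) and a prior count of 0.5, where a gene averaged 1 TPM and had 50 counts in all, or more; rounded counts entered edgeR and exact binomial intervals (95%, counting error only, since reads are not independent molecules). DESeq2 1.42.0 size factors were an alternative. With 1 library a side there is no replicate check. Quantifications were compared on log2(TPM + 0.1). Every member is named; those described in depth are the 12 highest, any over 1.5-fold apart, any whose quantifications differ over 2-fold, and the ends of each role group. Entries that name no annotated gene (0.491% and 0.480% of counts) stayed out. Expression by allele was not analysed here. Python 3.11.15 with Biopython 1.88 read and translated sequences.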

Additional observations from a re-analysis of the deposited data

How the results depend on the processing

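The number of detected members, 26, stayed within 1.5 times under all 7 alternatives, from 25 (TPM of at least 2) to 30 (TPM of at least 0.5, or TPM rescaled over nuclear protein-coding genes). The median level, 6.91 TPM, was 10.2 in the second quantification, 15.7 after rescaling over nuclear protein-coding genes, 9.25 over members with 10 counts or more in both libraries, and 5.96 on coding transcripts, which was chosen after seeing the data; without 1 replicate it ran from 6.51 to 7.30. No member was over 1.5-fold apart with library totals, and 3 were without the minimum on TPM and counts (Cdh22, Cdh3 and Cdh17). Of these, Cdh17 had only 1 count in replicate 1 and 2 in replicate 2. At 3-fold in place of 2-fold, 0 detected members had differing quantifications. For these counts of members, shares over all genes were taken at the main settings only. The delta-1 share, 37.8%, was 39.4% on coding transcripts. The type II share, 23.7%, was 23.3% in the second quantification and on coding transcripts, and 19.7% by counts. The delta-2 share, 17.9%, was 17.1% in the second quantification, 16.1% on coding transcripts and 23.6% by counts, so by counts it exceeded the type II share; counts are not divided by length. The share of Cdh8-203, 22.9%, was 26.1% in the second quantification and 31.3% by counts. No called ratio changed sign. Of 34 log2 ratios of single members, 11 changed sign on log2(TPM + 1), 5 with library totals, 3 in the second quantification and 0 with DESeq2 size factors. No paired analysis was possible because there is only 1 group. The number of libraries, 2, limits every statement on spread.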
